A study of Homo sapiens and Mus musculus with 28 samples.

Results

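The genes described are 40 human genes of glycolysis and of the cellular response to low oxygen, measured by RNA sequencing in the colorectal adenocarcinoma line DLD-1 with and without the transcription factor GATA6. They were taken by name: every row of the gene tables whose Ensembl gene identifier belongs to 1 of the 40 symbols, and all 40 were found in all 28 libraries among the 60357 genes shared by every table. They are 17 glycolytic enzymes, 6 transporters and regulators of glycolytic flux, 4 genes of oxygen sensing and 13 other genes listed as hypoxia targets. A degron clone of DLD-1, in which GATA6 carries the auxin-dependent tag AID-IAA7, gave 4 groups of 3 libraries: a control labelled as auxin at 0 h, 500 µM of the auxin IAA for 12 h, 500 µM IAA for 72 h, and IAA for 12 h followed by washing and 24 h in medium without it (washout). From untagged DLD-1 cultures came 3 libraries of wild-type cells (WT) and 3 of cells with GATA6 knocked out by CRISPR (KO), and the labels do not say whether the knockout cells are a clone or a pool. Xenografts gave 5 control and 5 KO libraries from tumours of DLD-1 control or GATA6-KO cells in the right flank of athymic nude mice, which lack T cells but keep other leukocytes and their own stroma and vessels; the mice were 5 to 6 weeks old and 10 were used per condition. The labels give these libraries as mouse, but only human genes are listed in their tables, and how mouse reads were handled is not given in the sources used here.

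Glycolysis splits glucose to pyruvate in the cytosol. Glucose enters through the transporters SLC2A1 (GLUT1) and SLC2A3 (GLUT3), hexokinases trap it as glucose 6-phosphate, phosphofructokinase commits it to the pathway, and lactate dehydrogenase turns pyruvate into lactate, which leaves through SLC16A3 (MCT4). Low oxygen acts on the same genes: prolyl hydroxylases (EGLN1, EGLN3) mark the alpha subunits HIF1A and EPAS1 (HIF-2 alpha) for destruction when oxygen is present, and without it the subunits persist and bind promoters through a short core sequence. Many glycolytic enzymes and genes such as VEGFA and CA9 are textbook HIF targets. The HIF proteins are set mainly by their stability, so the mRNA levels below say nothing of HIF activity by themselves.

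Library totals ran from 14569850 to 36500654 estimated counts. GATA6 mRNA stood at 43.2, 49.8 and 46.9 CPM (counts scaled to the library's TMM-adjusted total) in the degron controls and at 31.4, 34.9 and 36.0 CPM at 72 h, but the degron removes protein and mRNA is no check of it. It stood at 57.3, 73.7 and 91.7 CPM in WT and 25.2, 18.4 and 22.1 CPM in KO cultures, and at 66.5 to 80.2 CPM in control and 29 to 42.9 CPM in KO xenografts. Epithelial markers marked every group: at least 9 of 10 averaged over 1 CPM, and their sum lay between 8943 and 23430 CPM in each library. The sum differed between groups, at 8943 to 10644.5 CPM in control and 13011 to 18282.5 CPM in KO xenografts. It was 19204 to 19511.5 CPM in WT and 22507 to 23430 CPM in KO cultures. A list of 14 human stroma and leukocyte genes summed to 14.6 to 21.1 CPM in control and 19.2 to 37.3 CPM in KO xenografts, with 5 and 1 of its 14 genes at 0 in every library of the group; the sum was 3.46 to 3.69 CPM in the degron control and 9.41 to 10.8 CPM at 72 h, and 7.45 to 8.68 CPM in WT and 29.4 to 31.0 CPM in KO cultures, of which CD68 took 23.5 CPM on average. The part of these genes in the results was not tested. Haemoglobin mRNA stood apart in 4 libraries, at 4897 and 1027 counts in auxin 12 h replicates 2 and 3 and 227 and 2739 counts in washout replicates 1 and 3, against at most 17 counts elsewhere. Without these 4 libraries only replicate 1 remains at 12 h and replicate 2 after washout. Results on 12 h and washout are therefore given with them, since a group without replicates cannot decide a call. Effect sizes without them are given only for SLC2A12 and RORA, which are not members, and for none of the 40 members. SLC2A12 and RORA had the smallest p of their wider lists at 12 h, so they do not stand for the members. For 25 of the 40 members another gene overlaps on the opposite strand, and the strand setting of the counting is not given in the sources used here, so reads of such pairs may not be told apart.

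The HIF core was present in the promoters of most members, and 5 promoters are shown because the results below turn on their genes: CA9 and ANKRD37, which have no enzyme role in glycolysis, and the enzymes ENO1, LDHA and PGK1. Each is the RefSeq window of 300 bases from 250 before to 50 after the start of the gene on GRCh38.p14, written 5′ to 3′ on the gene's strand, with ACGTG or GCGTG on either strand (CACGT and CACGC on the other) in capitals.
CA9, chr9:35673678-35673977, plus strand: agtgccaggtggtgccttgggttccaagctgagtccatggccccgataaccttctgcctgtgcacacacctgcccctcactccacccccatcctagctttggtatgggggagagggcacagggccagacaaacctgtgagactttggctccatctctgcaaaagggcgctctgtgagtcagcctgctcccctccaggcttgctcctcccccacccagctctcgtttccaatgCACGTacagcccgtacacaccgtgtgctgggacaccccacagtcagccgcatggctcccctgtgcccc
ANKRD37, chr4:185396591-185396890, plus strand: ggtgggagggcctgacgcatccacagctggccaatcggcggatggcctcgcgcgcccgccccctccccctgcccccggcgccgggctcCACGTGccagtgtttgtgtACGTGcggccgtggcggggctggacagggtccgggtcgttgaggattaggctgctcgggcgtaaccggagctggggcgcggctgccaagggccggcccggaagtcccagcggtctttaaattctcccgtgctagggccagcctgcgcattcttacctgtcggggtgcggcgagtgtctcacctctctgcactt
ENO1, chr1:8878637-8878936, minus strand: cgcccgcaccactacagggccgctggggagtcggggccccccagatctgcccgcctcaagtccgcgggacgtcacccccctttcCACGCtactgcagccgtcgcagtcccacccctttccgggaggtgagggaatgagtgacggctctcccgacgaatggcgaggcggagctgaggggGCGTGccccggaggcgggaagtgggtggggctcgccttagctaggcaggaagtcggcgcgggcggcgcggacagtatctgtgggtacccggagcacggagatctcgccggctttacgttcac
LDHA, chr11:18394313-18394612, plus strand: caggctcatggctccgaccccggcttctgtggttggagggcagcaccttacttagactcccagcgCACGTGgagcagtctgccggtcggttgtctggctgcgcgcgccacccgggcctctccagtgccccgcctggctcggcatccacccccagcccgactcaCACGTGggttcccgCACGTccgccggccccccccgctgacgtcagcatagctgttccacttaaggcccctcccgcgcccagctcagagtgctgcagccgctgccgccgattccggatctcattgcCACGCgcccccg
PGK1, chrX:78103998-78104297, plus strand: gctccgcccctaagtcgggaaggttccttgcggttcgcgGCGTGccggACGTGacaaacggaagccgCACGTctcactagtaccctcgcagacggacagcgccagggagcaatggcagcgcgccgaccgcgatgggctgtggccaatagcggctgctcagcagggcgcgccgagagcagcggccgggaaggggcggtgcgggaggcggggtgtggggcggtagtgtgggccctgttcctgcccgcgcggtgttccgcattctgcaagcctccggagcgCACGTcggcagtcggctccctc

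Promoters of 36 members matched the RefSeq table, and those of SLC2A3, VEGFA, NDRG1 and BNIP3L did not. ACGTG or GCGTG on either strand occurred in 27 of these 36 (75%), in 12 of 17 enzymes (70.6%) and in 9 of 10 other hypoxia targets (90%), against 48.4% of all 35114 promoters of the same length. The core ACGTG alone occurred in 15 of 36 (41.7%) against 21.4% of all promoters. It overlaps the E-box CACGTG, which MYC family proteins also bind and which 16.7% of members and 7.26% of all promoters held; with matches inside the E-box left out, the core remained in 36.1% of members and 15.5% of all promoters. The promoters compared were not matched for their content of G and C, and both cores hold these bases. A match is a description and not a bound site.

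By TPM (transcript abundance per length, and so comparable between genes), the highest members in degron controls were enzymes, although the enzyme ALDOC was among the lowest. The highest mean levels were 7580 TPM for GAPDH, the triose dehydrogenase, 2883 TPM for ENO1, the main enolase, 2563 TPM for PKM, pyruvate kinase, and 2110 TPM for ALDOA, the main aldolase. SLC2A1, at 291 TPM, was the highest member that is no enzyme, and BNIP3L, a mitophagy receptor, was the highest of the other hypoxia targets at 46.9 TPM. At the other end stood ANGPTL4 at 1.03 TPM, the tumour-associated carbonic anhydrase CA9 at 0.83 TPM, BNIP3 at 0.52 TPM, the aldolase isoenzyme ALDOC at 0.37 TPM and MXRA5, a secreted matrix protein, with 0 counts in all 12 degron libraries. The isoenzymes used differed by reaction: ENO1 exceeded ENO2 (2883 against 6.30 TPM) and ALDOA exceeded ALDOC, while HK1 and HK2 (47.2 and 36.6 TPM) and LDHA and LDHB (1093 and 1394 TPM) were of the same order.

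Summed over the 17 enzymes, the level was lower at 72 h and in both KO groups than in their controls, while the sum over the 13 other hypoxia targets was higher at 72 h and in KO cultures. The enzymes took 20243, 20891 and 20936 TPM in the degron control libraries and 18512, 18559 and 18778 TPM at 72 h. They took 18056, 18483 and 19315 TPM in WT cultures and 15024, 15228 and 15636 TPM in KO cultures. The groups of each pair do not overlap. The other hypoxia targets summed to 183 to 189 TPM in the degron control and 306 to 317 TPM at 72 h, and to 269 to 276 TPM in WT and 528 to 557 TPM in KO cultures. In the tumours the enzymes summed to 21228 to 23716 TPM in control and 17973 to 20692 TPM in KO xenografts, again without overlap, while the other targets overlapped, at 565 to 852 and 615 to 1316 TPM. The sum of transporters and regulators is mostly SLC2A1, and was 359 to 396 TPM in the degron control, 539 to 668 TPM at 72 h, 445 to 614 TPM in WT and 771 to 912 TPM in KO cultures. These sums are descriptions and were not tested.

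**Figure D1:**
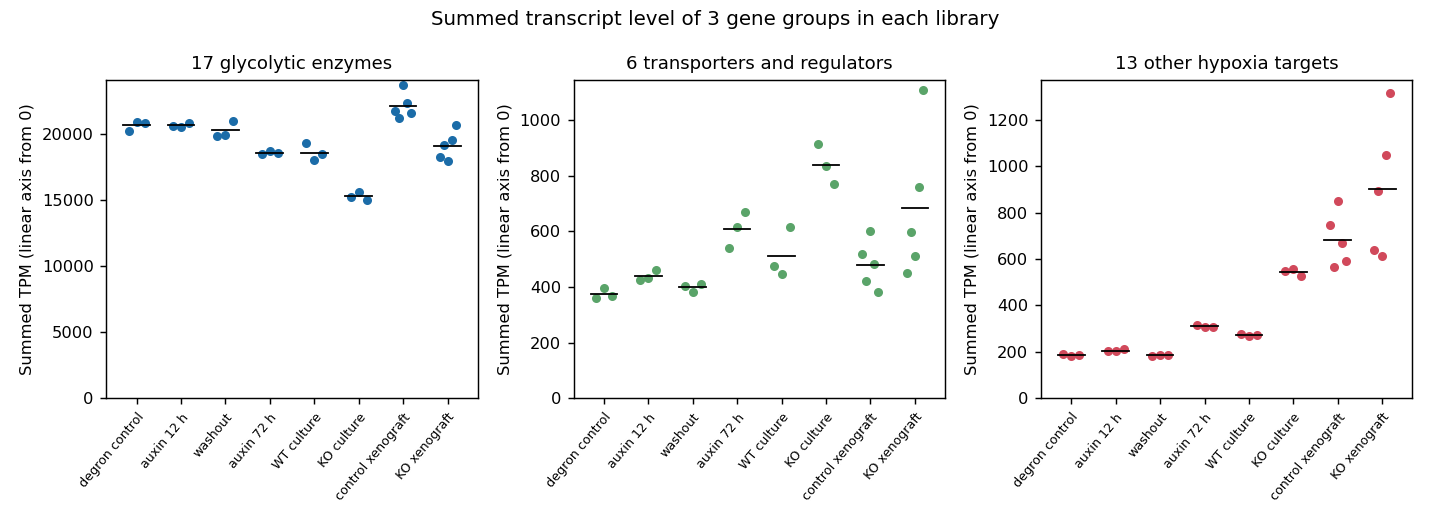
Summed TPM in each library (vertical axes, linear from 0) of the 17 glycolytic enzymes, the 6 transporters and regulators and the 13 other hypoxia targets, by group (horizontal axis); points are libraries and bars are group means. The enzymes sit lower and the other targets higher in 72 h than in degron control libraries and in KO than in WT cultures, and the KO xenografts are widely spread, from 615 to 1316 TPM for the other targets.

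After 72 h of auxin, 11 of 16 tested enzymes fell and 2 rose (edgeR quasi-likelihood test, adjusted p under 0.05 over all genes), while 7 of 12 tested hypoxia targets rose and 2 fell. Of all 14029 genes tested, 57.8% passed, 28.3% higher and 29.5% lower beside 30 of the 38 members tested. The median log2 fold change was -0.17 for the enzymes, 0.31 for the hypoxia targets and 0.00 for all genes. The series holds no untagged cells given auxin and no control labelled for 72 h without it. Loss of GATA6, auxin itself and time in culture can therefore not be told apart in the degron clone. ENO1 gave 3329, 3426 and 3305 CPM in the controls and 2161, 2305 and 2253 CPM at 72 h. All 72 h libraries lay below all controls, a log2 fold change of -0.58 (SE 0.0438, adjusted p = 5.01e-11). The other falling enzymes moved less: GPI, the glucose 6-phosphate isomerase, by -0.41, HK2 by -0.37, LDHA by -0.36, PGAM1, the phosphoglycerate mutase, by -0.34, GAPDH by -0.29, ALDOA by -0.22, PFKP by -0.19, PKM by -0.16, LDHB by -0.14 and TPI1, the triose isomerase, by -0.12. ENO2, the enolase best known from neurons, rose from 7.88, 11.2 and 8.48 CPM to 14.3, 15.3 and 12.6 CPM (log2 0.62, SE 0.116, adjusted p = 6.58e-05), and PFKM, the muscle-type phosphofructokinase, by 0.16. HK1, PFKL and PGK1, the phosphoglycerate kinase, had log2 fold changes of -0.01, -0.01 and -0.08 and did not pass, and ALDOC was too low to test. The small enzyme changes depend on scaling. Scaling by total counts raises the median of all genes by 0.12 and leaves 7 enzymes lower, and limma on log2(TPM + 1) leaves 6, with a shift of 0.12; under both PFKP, PKM, LDHB and TPI1 no longer pass, and PGK1 is at 0.12 by limma (adjusted p = 0.0222). PFKM also missed the threshold without control replicate 1 or 72 h replicate 2, and TPI1 without control replicate 3 or 72 h replicate 1 or with no filter on low counts, with highest adjusted p of 0.15 for PFKM and 0.909 for TPI1 over all settings.

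Among the transporters and regulators at 72 h, SLC2A3 fell from 59.3, 59.2 and 55.4 CPM to 36.0, 37.2 and 35.4 CPM. The groups do not overlap (log2 -0.68, SE 0.0561, adjusted p = 2.58e-10). SLC2A1, the other glucose transporter listed, went the other way, from 641, 685 and 643 CPM to 762, 818 and 823 CPM (log2 0.29, SE 0.0452, adjusted p = 7.05e-06). PFKFB3 and PFKFB4, which make the phosphofructokinase activator fructose 2,6-bisphosphate, rose by 0.30 and 0.60. SLC16A3 and PDK1, a kinase that inhibits pyruvate dehydrogenase, had log2 fold changes of 0.03 and -0.08 and did not pass.

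The oxygen-sensing genes changed in opposite directions at 72 h: both HIF alpha subunits rose and both hydroxylases fell. EPAS1 (chr2:46293667-46386703, plus strand, hg38) gave 23.8, 24.7 and 26.9 CPM in the controls and 70.3, 69.2 and 66.9 CPM at 72 h, 2.74-fold higher (log2 1.45, SE 0.0848, adjusted p = 4.37e-12). HIF1A rose far less, from 169, 151 and 154 CPM to 173, 184 and 179 CPM (log2 0.18, SE 0.0488, adjusted p = 0.00303). By length HIF1A remained the more abundant, at a mean of 53.9 TPM against 6.93 TPM for EPAS1 in the controls. EGLN3 fell by 0.48 and EGLN1 by 0.27 on the log2 scale, although EGLN1 lay on the other side in limma on log2(TPM + 1), at 0.12, where it did not pass.

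BHLHE40, a circadian and hypoxia-responsive repressor, had the largest rise of the members at 72 h: 8.47, 9.11 and 8.53 CPM in the controls and 30.9, 32.1 and 32.0 CPM at 72 h. That is 3.63-fold (log2 1.86, SE 0.0819, adjusted p = 3.41e-15). NDRG1, a stress and differentiation gene, rose from 34.3, 32.1 and 38.1 to 92.5, 89.2 and 84.4 CPM (log2 1.35). ADM, the vasodilator peptide adrenomedullin, rose from 11.2, 13.9 and 12.2 to 20.9, 22.4 and 21.9 CPM (log2 0.80), and KDM3A, a histone demethylase, from 26.9, 26.4 and 32.5 to 48.5, 45.5 and 46.9 CPM (log2 0.72). For these 4 genes the groups do not overlap. BNIP3L rose by 0.55, and the collagen prolyl hydroxylases P4HA1 and P4HA2 by 0.32 and 0.30. CA9 went against them: its counts were 9, 10 and 10 in the controls and 0 in all 3 libraries at 72 h, at least 11.6-fold lower by a floor of 3 counts over the group. BNIP3, also rare, had 55 counts over the controls and 36 over the 72 h libraries (log2 -0.99, adjusted p = 0.0186), which missed the threshold when control replicate 1, 72 h replicate 1 or 72 h replicate 2 was left out (highest adjusted p 0.0957). VEGFA, ANGPTL4 and ANKRD37 had log2 fold changes of 0.07, -0.23 and 0.07 and did not pass. VEGFA, the angiogenic factor and classical HIF target, stood at 26.7, 26.3 and 30.9 CPM in the controls and 28.5, 28.5 and 30.7 CPM at 72 h, and the groups overlap.

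At 12 h no enzyme passed the test: their log2 fold changes ran from -0.14 to 0.11 over 16 tested enzymes, of which 14 were negative. At an unadjusted p under 0.05 there were 2 enzymes lower and 0 higher, and DESeq2 called 0. Of 38 members tested, 8 passed, against 7.39% of all genes (4.04% higher and 3.35% lower): SLC2A1 at 0.25, SLC16A3 at 0.20, EPAS1 at 0.35, NDRG1 at 0.34, BHLHE40 at 0.35 and BNIP3L at 0.22 rose, and SLC2A3 at -0.49 and VEGFA at -0.35 fell. SLC2A3 was the clearest, at 41.2, 40.9 and 42.2 CPM at 12 h against 55.4 to 59.3 CPM in the controls (SE 0.0564, adjusted p = 2.28e-06). SLC2A1 stood at 792, 782 and 773 CPM against 641 to 685 CPM (adjusted p = 0.000661), and VEGFA at 20.6, 21.5 and 23.6 against 26.3 to 30.9 CPM (adjusted p = 0.00544). None of these 3 genes overlap between the groups. BHLHE40 gave 11.4, 10.8 and 11.1 CPM against 8.47 to 9.11 CPM, EPAS1 30.3, 31.2 and 34.9 against 23.8 to 26.9 CPM, and NDRG1 45.5, 42.9 and 43.8 against 32.1 to 38.1 CPM. SLC2A3 alone of the 8 passed under every alternative setting tried. Leaving out the 4 haemoglobin libraries leaves only replicate 1 at 12 h, so that fit cannot decide these calls. With limma on log2(TPM + 1) 2 members passed. Single libraries also decided calls: SLC16A3 missed the threshold when any of control replicates 1 and 3 and 12 h replicates 1 and 3 was left out (highest adjusted p over all settings 0.243), EPAS1 for control replicates 1 and 2 and 12 h replicate 3 (0.169) and NDRG1 for control replicates 1 and 2 and 12 h replicate 1 (0.109). BNIP3L was lost without control replicate 2 or 12 h replicate 1 (0.196) and BHLHE40 without control replicate 3 or 12 h replicate 1 (0.246). The 12 h, 72 h and washout comparisons share their control libraries, so their directions are not independent of each other.

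Washout against 12 h gave 13 of 38 members, against 17.4% of all genes (9.27% higher and 8.15% lower). SLC2A3 rose back to 63.1, 61.0 and 64.3 CPM (log2 0.60, SE 0.0564, adjusted p = 5.73e-08), and BNIP3L fell from 119, 117 and 122 to 87.5, 92.2 and 87.7 CPM (log2 -0.42, adjusted p = 1.55e-05). NDRG1 fell by 0.41, BHLHE40 by 0.36, KDM3A by 0.28, PDK1 by 0.27, HIF1A by 0.20, EPAS1 by 0.29, EGLN1 by 0.18, SLC16A3 by 0.19 and SLC2A1 by 0.14 on the log2 scale, and P4HA2 and PFKM rose by 0.24 and 0.19. Leaving out the 4 haemoglobin libraries leaves only replicate 1 at 12 h and replicate 2 after washout, so that fit cannot decide these calls. Leaving out any single library of these groups left 8 to 10. Against the untreated control, washout gave 5 members of 38 (5% of all genes, 2.64% higher and 2.36% lower): P4HA2 was higher at 0.31, and PDK1 at -0.38, VEGFA at -0.28, BNIP3L at -0.20 and HK2 at -0.19 were lower. P4HA2 stood at 79.3, 80.6 and 85.8 CPM after washout against 67.7, 68.3 and 61.3 CPM in the controls. PDK1 stood at 20.4, 21.0 and 17.8 against 23.6, 23.8 and 29.9 CPM, VEGFA at 21.8, 24.8 and 22.6 CPM and HK2 at 135, 134 and 141 against 152, 158 and 158 CPM. Without the haemoglobin libraries only washout replicate 2 remains, so that fit cannot decide these 5 calls. When single libraries were left out 1 to 5 passed, the fewest without control replicate 3.

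In the knockout cultures 11 of 17 enzymes were lower and 3 higher than in WT, and 8 of 12 tested hypoxia targets were higher and 1 lower. In all, 31 of 39 tested members passed, against 59.1% of 13740 genes (30.4% higher and 28.7% lower). The medians were -0.45 for the enzymes, 0.52 for the hypoxia targets and 0.02 for all genes. HK2, the inducible hexokinase of tumours, fell from 177, 180 and 170 CPM to 71.9, 68.4 and 68.6 CPM, 2.52-fold (log2 -1.33, SE 0.0457, adjusted p = 3.34e-12). Its isoenzyme HK1 rose from 168, 165 and 171 to 217, 218 and 220 CPM (log2 0.38, SE 0.0395, adjusted p = 7.73e-07). By TPM the pair went from 54.7 to 62.8 (HK1) and 38.1 to 39.6 (HK2) in WT to 85.7 to 88.3 and 17.2 to 18.5 in KO cultures. LDHB, the lactate dehydrogenase subunit that favours pyruvate, fell from 1234, 1246 and 1216 to 574, 642 and 596 CPM (log2 -1.03), and LDHA by less, from 1748, 1685 and 1724 to 1217, 1294 and 1258 CPM (log2 -0.45). ENO1 fell from 3115, 2949 and 2790 to 1664, 1776 and 1722 CPM (log2 -0.78, SE 0.0482), while ENO2 rose from 14.6, 15.0 and 15.3 to 27.2, 31.0 and 26.7 CPM (log2 0.92, SE 0.0818). GPI fell by 0.69, PFKM by 0.57, TPI1 by 0.48, PKM by 0.47, GAPDH by 0.45, PGAM1 by 0.31 and ALDOA by 0.21 on the log2 scale, and PFKP rose by 0.18. PFKL at 0.09, PGK1 at 0.10 and ALDOC at -0.15 did not pass. In limma on log2(TPM + 1), which moves the median of all genes by 0.18, PFKM, ALDOA and PGAM1 no longer passed and 5 enzymes were higher; 8 remained lower.

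**Figure D2:**
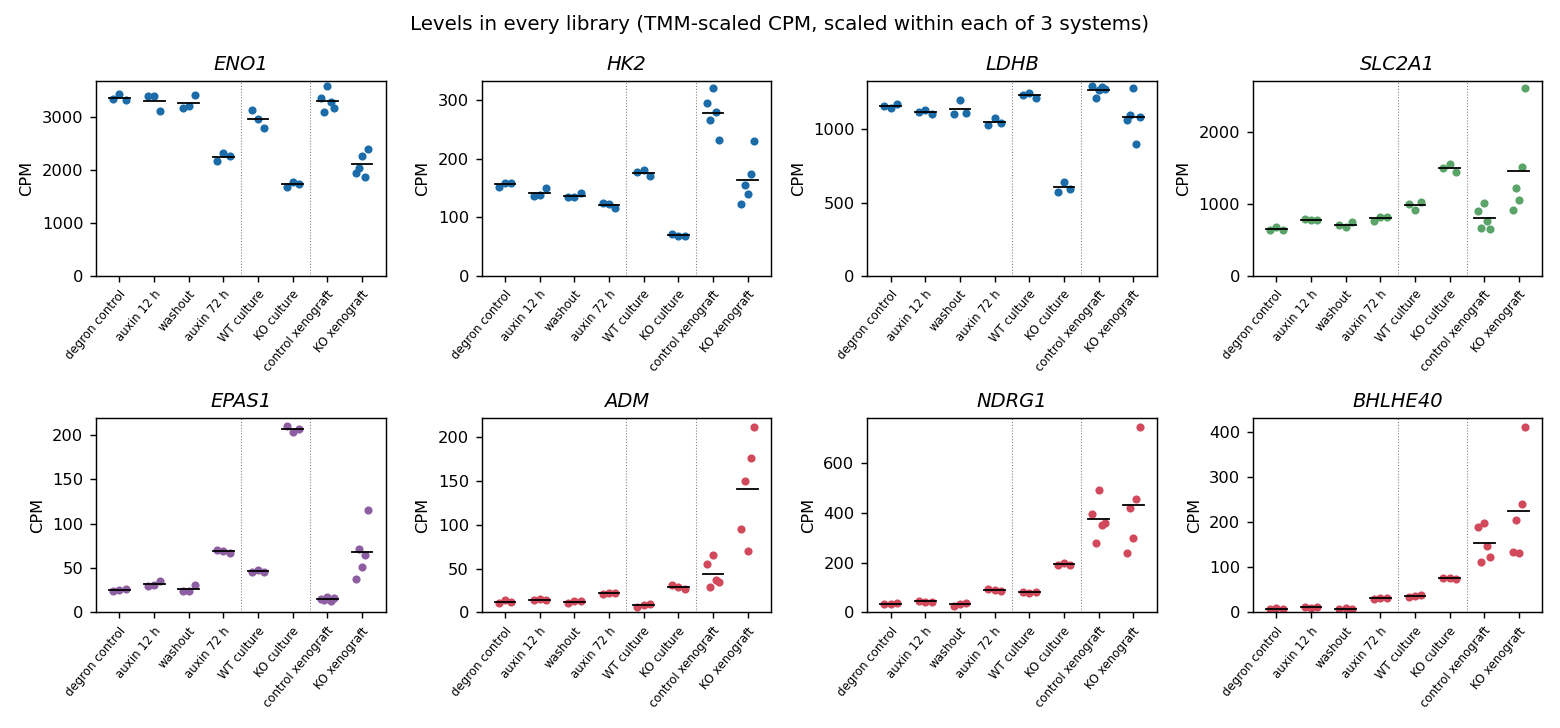
Levels of 8 members in every library (vertical axes, CPM after TMM scaling within each of the 3 systems, which the dotted lines separate; levels are not comparable across the lines) by group; points are libraries and bars are means. ENO1 and HK2 sit lower and EPAS1 and ADM higher in 72 h, KO culture and KO xenograft libraries than in their controls. These do not overlap on this scale, while NDRG1 and BHLHE40 overlap in the xenografts. On the scale joint with the cultures, HK2 overlaps in the xenografts, with replicate 5 at 215 (control) and 217 CPM (KO).

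EPAS1 had the largest rise among well-measured members in the knockout cultures, from 46.0, 48.0 and 45.9 to 209, 203 and 206 CPM, 4.42-fold (log2 2.14, SE 0.0452, adjusted p = 1.45e-14). HIF1A rose from 285, 276 and 274 to 360, 330 and 374 CPM (log2 0.35, SE 0.0475). EGLN3, the hydroxylase that is itself induced by HIF, fell from 15.3, 16.2 and 18.2 to 7.75, 6.98 and 7.64 CPM (log2 -1.15, SE 0.107, adjusted p = 2.29e-07). EGLN1 was lower by 0.19, a call lost by total-count scaling and without WT replicate 2 or KO replicate 1 (highest adjusted p 0.185), and it turned to 0.30 in limma on log2(TPM + 1). SLC2A1 rose from 993, 922 and 1021 to 1504, 1562 and 1448 CPM (log2 0.62, SE 0.0477), SLC16A3 by 0.42 and PFKFB4 by 0.30, while SLC2A3 fell by 0.41 and PFKFB3 at 0.07 and PDK1 at -0.14 did not pass. The PFKFB4 call was lost in DESeq2 and without WT replicate 2 or KO replicate 2 or 3 (highest adjusted p 0.0722).

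ADM led the hypoxia targets, from 6.18, 8.54 and 9.14 to 31.5, 28.6 and 26.5 CPM, 3.65-fold (log2 1.87, SE 0.126, adjusted p = 5.68e-08). NDRG1 rose from 80.3, 78.8 and 81.9 to 192, 196 and 190 CPM (log2 1.26) and BHLHE40 from 34.8, 36.4 and 39.6 to 75.7, 77.0 and 74.7 CPM (log2 1.04). BNIP3L rose by 0.87, P4HA2 by 0.64, P4HA1 by 0.28 and VEGFA by 0.25. VEGFA gave 69.8, 80.0 and 83.2 CPM in WT and 94.1, 90.0 and 92.9 CPM in KO cultures. KDM3A fell by 0.25, the opposite of its rise at 72 h, though not past the threshold in limma on log2(TPM + 1). MXRA5 had 0 counts in all WT and 17, 13 and 13 counts in the KO libraries, at least 12.2-fold higher, and CA9 had 2 and 14 counts in all, a ratio of 5.96 with a 95% counting interval of 1.37 to 54.1. ANKRD37 at 0.40, ANGPTL4 at -0.11 and BNIP3 at 0.36 did not pass.

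In the xenografts 7 of 17 enzymes were lower and 1 higher in KO than in control tumours, and 3 of 11 tested hypoxia targets were higher and 0 lower. At an unadjusted p under 0.05 there were 4 targets higher and 0 lower, and DESeq2 called 3 and 0. In all 15 of 38 members passed, against 56.1% of 14996 genes, 28% higher and 28.1% lower, so the share of members is below the background. ALDOC, the aldolase of brain and a textbook hypoxia gene, gave 16.9, 10.6, 19.8, 12.6 and 14.6 CPM in control and 2.25, 2.71, 1.96, 3.40 and 3.10 CPM in KO tumours. All KO values lay below all control values, 5.51-fold (log2 -2.46, SE 0.188, adjusted p = 5.93e-08). ENO1 fell from 3348, 3076, 3573, 3275 and 3164 to 1941, 2037, 2255, 1861 and 2396 CPM (log2 -0.65, SE 0.0795, adjusted p = 5.97e-06) and HK2 from 295, 266, 320, 280 and 231 to 123, 154, 140, 173 and 230 CPM (log2 -0.76, SE 0.15). PFKM fell by 0.43 and GPI by 0.32 without overlap, LDHA by 0.29 and LDHB by 0.22 with overlap. ENO2 rose from 43.1, 26.5, 42.9, 33.9 and 28.4 to 48.7, 60.8, 43.8, 71.7 and 75.2 CPM (log2 0.78, SE 0.187, adjusted p = 0.0043). The other 9 enzymes lay between -0.22 and 0.12 and did not pass. GAPDH was among them, at 6632 to 7684 CPM in control and 6401 to 7896 CPM in KO tumours.

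PDK1 fell in the KO tumours from 95.6, 82.5, 106, 90.1 and 75.0 to 40.3, 51.8, 42.4, 53.9 and 70.0 CPM (log2 -0.80, SE 0.143, adjusted p = 0.000466), without overlap. EPAS1 rose from 14.8, 13.8, 17.1, 13 and 16.6 to 38.2, 71.7, 51.4, 64.1 and 115 CPM, 4.54-fold (log2 2.18, SE 0.276, adjusted p = 0.000106). EGLN3 fell by 0.64 and SLC2A1 rose by 0.87, each with overlap. ADM rose from 54.6, 29.3, 65.2, 37.0 and 35.1 to 95.2, 150, 70.1, 175 and 211 CPM (log2 1.67, SE 0.352, adjusted p = 0.0033), P4HA2 from 79.5, 70.3, 77.9, 69.8 and 70.2 to 107, 123, 123, 116 and 146 CPM (log2 0.74, SE 0.079, adjusted p = 1.37e-06) and BNIP3L by 0.41. NDRG1 at 0.21, BHLHE40 at 0.54, ANGPTL4 at 0.90, CA9 at 0.48, P4HA1 at 0.43 and VEGFA at 0.08 did not pass. For VEGFA the 95% interval of the log2 difference was -0.46 to 0.62, so a change of the size seen in culture is inside it. MXRA5, at 19 counts over control and 100 over KO tumours, was too low to test, and BNIP3 had 1 count in each group. In tumour tissue, fewer cells of a kind and less RNA per cell cannot be told apart. The calls for LDHA, LDHB, SLC2A1, EGLN3 and BNIP3L depend on single libraries. LDHA missed the threshold without control replicate 1 or 3 or KO replicate 1, 2 or 4 (highest adjusted p over all settings 0.0798). LDHB missed it without control replicate 1, 3 or 4 or KO replicate 2 or 4 (0.0711), SLC2A1 without control replicate 2, 4 or 5 or KO replicate 4 (0.107), EGLN3 without control replicate 1 or 3 or KO replicate 1, 2, 3 or 4 (0.069) and BNIP3L without control replicate 2 or 5 (0.103). Leaving out KO replicate 5 raised the members passing from 15 to 20, with PFKP, PGK1, PKM, PFKFB3 and KDM3A then lower.

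**Figure D3:**
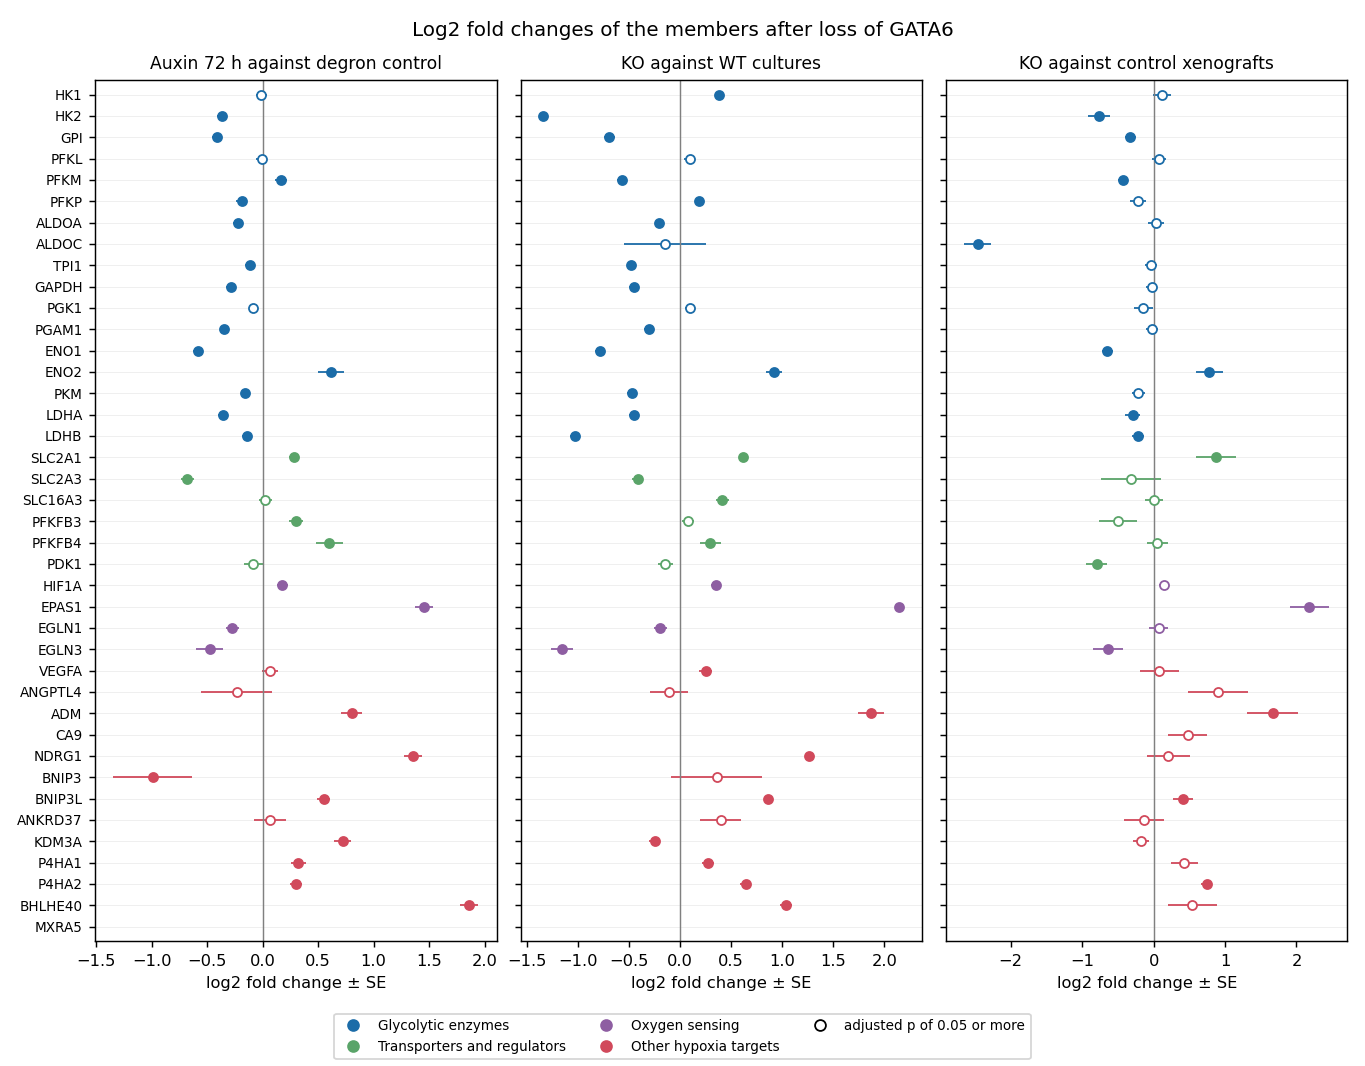
Log2 fold change (horizontal axes, edgeR, bars are ± 1 SE) of the members after 72 h of auxin in the degron clone, in KO cultures and in KO xenografts, coloured by role; filled points have adjusted p under 0.05, the horizontal scales differ between panels, and members too low to test or with 3 or fewer counts in a group are left out. ENO1 is lower and EPAS1 higher in every panel, and the other hypoxia targets lie mostly to the right of 0 while most enzymes lie to the left.

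The 3 comparisons of lost against retained GATA6 share no libraries, so their calls can be set side by side. In all 3, ENO2, SLC2A1, EPAS1, ADM, BNIP3L and P4HA2 were higher and HK2, GPI, ENO1, LDHA, LDHB and EGLN3 lower. Of these, the xenograft calls of LDHA, LDHB, SLC2A1, EGLN3 and BNIP3L were lost when single libraries were left out. The LDHB call at 72 h was lost under total-count scaling and limma. Of the 30 members called at 72 h and the 31 called in KO cultures, 11 were higher in both, 13 lower in both and 3 opposite: PFKM and PFKP among the phosphofructokinases, and KDM3A. Of the 13211 genes tested in both, 14.2% were higher in both, 16% lower in both and 8.73% opposite. Of the 12764 genes tested in all 3 comparisons, 8.38% were higher and 11.2% lower in each. Of the enzymes, 10 were lower at 72 h and in KO cultures. Among them the PKM and TPI1 calls at 72 h were also lost under total-count scaling and limma. Those of ALDOA and PGAM1 in KO cultures were lost under limma. Over all settings 6 to 12 enzymes were lower at 72 h and 8 to 11 in KO cultures. The libraries behind each call are of the same cell line.

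The sizes differed between the systems by test of the difference. The 72 h effect differed from the culture KO effect for 23 of 39 members, against 44.1% of 14714 genes. HK2 (difference 0.98, SE 0.067, adjusted p = 4.8e-12), LDHB (0.90, SE 0.0595), PFKM (0.75), TPI1 (0.37), PKM (0.33), GPI (0.29) and ENO1 (0.21) fell less, or in the case of PFKM rose, at 72 h. ADM (-1.05, SE 0.155), EPAS1 (-0.68) and BNIP3L (-0.30) rose less at 72 h, and BHLHE40 (0.84) and KDM3A (0.98) more. The ENO1 difference was lost without WT replicate 1 (highest adjusted p over all settings 0.265). SLC2A1 rose less at 72 h by the counts (-0.32), but by limma on log2(TPM + 1) the difference was 0.04. The KO effect in xenografts differed from that in cultures for 6 of 40 members, against 27% of 16021 genes. LDHB (0.82, SE 0.11, adjusted p = 1.02e-05), TPI1 (0.45), GAPDH (0.44) and GPI (0.38) were lowered less in tumours. ALDOC (-2.31, SE 0.43) and PDK1 (-0.64) were lowered in tumours and not called in culture. For ALDOC the cultures held only 68 counts over WT and 78 over KO libraries, which limits what can be seen there. Of the 13 hypoxia targets 0 passed this test (edgeR). At an unadjusted p under 0.05 there were 3 lower and 0 higher, and DESeq2 called 0. Their intervals are wide: that of NDRG1 ran from -1.85 to -0.23 (adjusted p = 0.0827) and that of ADM from -1.24 to 0.88. System, time and the run of sequencing cannot be told apart in these differences. Total-count scaling gives 11 members for the tumour difference, limma on log2(TPM + 1) 12 with a shift of -0.26 in the median of all genes, and leaving out KO xenograft replicate 5 gives 14. The PDK1 difference was lost without any 1 WT culture, without KO culture replicate 2 or 3 or without control xenograft replicate 1 (highest adjusted p 0.113), and that of GPI without WT replicate 1 (0.295 over all settings).

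Control tumours against WT cultures gave the largest differences of the hypoxia targets: 10 of 13 were higher and 2 lower, with a median log2 of 1.79 against 0.03 for all genes, while 3 of 17 enzymes were higher and 4 lower, with a median of 0.05. In all, 26 of 40 members passed, against 70% of 16021 genes (35% higher and 35% lower). Values here are CPM on a scale joint to both systems. CA9 had 2 counts over the WT cultures and 1049 over the control tumours, a ratio of 263 with a 95% counting interval of 72.7 to 2177, and stood at 8.09, 6.13, 10.8, 6.84 and 7.76 CPM in the tumours. ANGPTL4, a lipase inhibitor, rose from 4.23, 3.95 and 5.45 to 23.9, 12.7, 38.8, 18.2 and 16.4 CPM (log2 2.28, SE 0.513, adjusted p = 0.00146). ADM rose from 6.99, 9.60 and 10.1 to 51.3, 27.7, 61.2, 34.7 and 32.7 CPM (log2 2.23) and NDRG1 from 90.8, 88.6 and 90.6 to 373, 262, 460, 327 and 334 CPM (log2 1.96). ANKRD37 rose from 4.18, 2.98 and 3.60 to 13.4, 7.61, 20.3, 12.0 and 9.04 CPM (log2 1.79), VEGFA from 78.9, 89.9 and 92.0 to 231, 172, 217, 175 and 148 CPM (log2 1.12). None of these genes overlap between the groups. BHLHE40 rose by 1.81, KDM3A by 0.84 and P4HA1 by 0.73. MXRA5 had 19 counts against 0, at least 3.18-fold higher. P4HA2 fell by 0.40, and BNIP3 had 57 counts in the cultures and 1 in the tumours, a ratio of 114 with an interval of 19.6 to 4563.

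Among the regulators, PFKFB3, PFKFB4 and PDK1 were 3.06-, 3.03- and 2.91-fold higher in tumours (log2 1.61, 1.60 and 1.54), and EGLN3 rose from 17.3, 18.2 and 20.1 to 80.7, 67.4, 93.4, 70.0 and 66.5 CPM (log2 2.03, SE 0.238). Both HIF alpha mRNAs were lower: HIF1A went from 322, 310 and 303 to 126, 125, 126, 126 and 105 CPM (log2 -1.36, SE 0.0685, adjusted p = 8.34e-13) and EPAS1 from 52.0, 54.0 and 50.7 to 13.9, 13, 16, 12.1 and 15.4 CPM (log2 -1.89, SE 0.26). Of the enzymes, 3 rose: ALDOC from 0.867, 1.23 and 1.67 to 15.9, 9.97, 18.6, 11.8 and 13.6 CPM (11.2-fold, log2 3.49, SE 0.299), ENO2 by 0.97 and HK2 by 0.41. On the lower side, PFKP went from 282, 299 and 275 to 213, 183, 224, 195 and 189 CPM. PGAM1 went from 785, 800 and 784 to 564, 535, 615, 547 and 542 CPM. For both the groups do not overlap, and PKM and LDHB were also called lower. LDHA and PGK1, both with several matches in the promoters shown, had log2 fold changes of -0.08 and 0.07 and did not pass, and ENO1 at -0.10 did not either. SLC2A1 stood at 1122, 1036 and 1128 CPM in WT cultures and 609 to 949 CPM in tumours (log2 -0.55, adjusted p = 0.0927), and SLC2A3 fell by 1.39. These enzyme directions depend on scaling: total-count scaling moves the median of all genes by 0.30 and gives 11 enzymes higher and 1 lower, with ENO1 at 0.20 and LDHA at 0.21, and limma on log2(TPM + 1), with a shift of 0.19, gives 11 and 0, with ENO1 at 0.25 and LDHA at 0.32. The HK2 call was lost without WT replicate 3 or control xenograft replicate 3 (highest adjusted p 0.0725), and those of PKM and LDHB without WT replicate 1 or 2 (0.653 and 0.709 over all settings). Of the hypoxia targets 9 to 11 were higher under every setting tried. The tables of the cultures and of the xenografts hold different gene sets (60649 and 62700 genes), so differences between them cannot be told apart from differences in annotation, sequencing and handling of mouse reads.

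**Figure D4:**
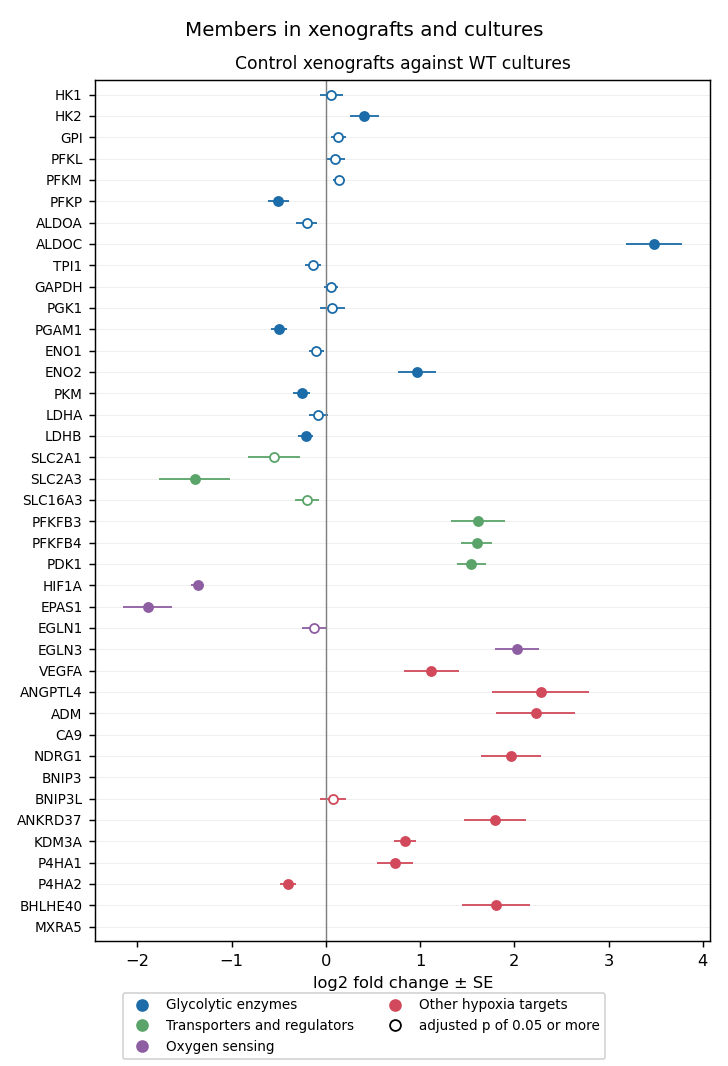
Log2 fold change (horizontal axis, edgeR, bars are ± 1 SE) of control xenografts against WT cultures for the members, coloured by role; filled points have adjusted p under 0.05, and CA9, BNIP3 and MXRA5, with 3 or fewer counts in a group, are left out. Most enzymes lie near 0, with ALDOC at 3.49 apart, while ANGPTL4, ADM, EGLN3, NDRG1 and BHLHE40 lie near 2.

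Within the tumours the hypoxia targets varied most from library to library. Over targets of at least 1 CPM the median coefficient of variation was 20.8% in control and 41.4% in KO xenografts, against 2.54% to 9.42% in the 6 groups of cultured cells. For the enzymes it was 7.27% and 15.8% in the tumours and 2.45% to 4.11% in cultured cells. The variation was shared between members. How often these libraries rank highest or lowest over all genes was not counted, so this may not be particular to the members. KO replicate 5 was the highest of its group for 12 of 12 targets, 15 of 17 enzymes and 5 of 6 transporters and regulators. Control replicate 3 was the highest for 8 of 11 targets, 12 of 17 enzymes and 6 of 6 transporters and regulators, and control replicate 2 the lowest for 8 of 11 targets and 13 of 17 enzymes. VEGFA in KO tumours gave 156, 180, 121, 270 and 338 CPM and NDRG1 239, 420, 299, 454 and 745 CPM, while SLC2A1 gave 916, 1225, 1058, 1508 and 2611 CPM. The highest was 2.8 to 3.11 times the lowest for these genes. PGK1 followed them more weakly, at 551, 747, 692, 741 and 999 CPM. How much of this comes from tumour size, oxygen or cell composition was not tested.

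**Figure D5:**
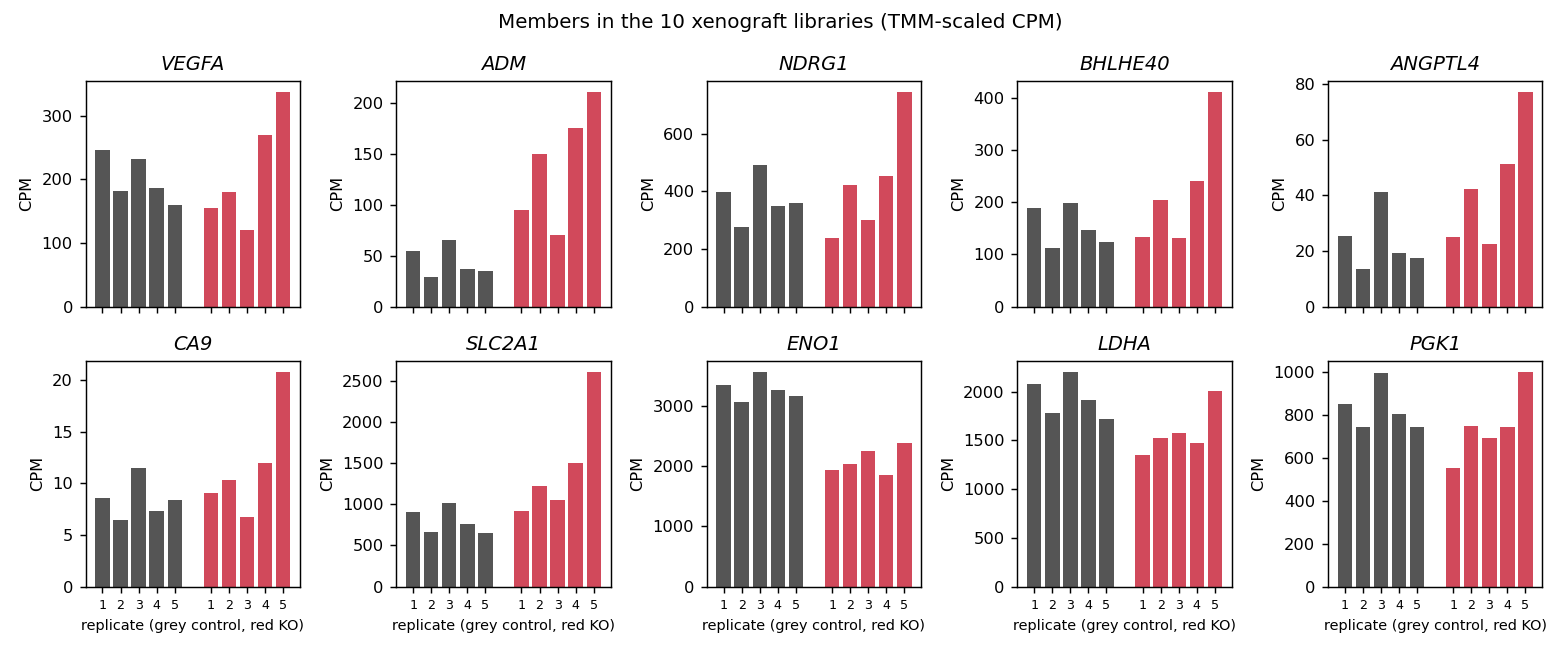
Levels of 10 members in each xenograft library (vertical axes, CPM after TMM scaling of the 10 libraries, linear from 0; bars are single libraries, control in grey and KO in red, by replicate number). KO replicate 5 is the highest KO library in every panel and control replicate 3 the highest control in every panel but VEGFA, while ENO1 is lower in all 5 KO libraries than in all 5 controls.

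A wider list of 20 glycolysis genes and 26 hypoxia genes outside the 40 was read the same way. At 72 h 4 of 17 tested glycolysis genes rose and 8 fell, in KO cultures 5 rose and 7 fell, and in KO xenografts 3 rose and 7 fell, again of 17. Of the wider hypoxia genes 10 rose and 8 fell of 23 tested at 72 h, 8 and 6 in KO cultures and 8 and 6 in KO xenografts, again of 23. These counts stand beside 57.8%, 59.1% and 56.1% of all genes passing in the 3 comparisons. SLC2A12, a glucose transporter of the same family as SLC2A1, went from 9.94, 6.82 and 8.76 CPM in degron controls to 20.8, 21.4 and 27.6 CPM with 12 h of auxin and 56.2, 61.8 and 55.2 CPM with 72 h, and it stood at 7.73, 7.73 and 8.91 CPM in the washout libraries. It rose 2.73-fold at 12 h (log2 1.45, SE 0.126, adjusted p = 8.11e-07), by 2.76 on the log2 scale at 72 h, by 2.04 in KO cultures and by 2.23 in KO xenografts. Without the haemoglobin libraries its log2 fold change was 1.29 at 12 h and -1.44 for washout against 12 h. That fit has no replicates in the 12 h and washout groups. SLC16A1 (MCT1), a transporter of lactate and pyruvate, fell by 0.34 at 72 h, by 0.87 in KO cultures and by 1.23 in KO xenografts, where it went from 472 to 544 CPM in control to 191 to 259 CPM in KO tumours. RORA, a nuclear receptor that HIF can induce, rose by 0.57 at 12 h (0.60 without the haemoglobin libraries) and 1.28 at 72 h. Its 72 h effect exceeded its effect in KO cultures by 0.90 (SE 0.0789, edgeR adjusted p = 5.29e-10), so the rise was not of one size in both. DDIT4, an inhibitor of mTORC1 with an annotated gene on the opposite strand, rose from 23.8, 25.9 and 39.0 to 91.2, 92.0 and 91.9 CPM at 72 h (log2 1.64, SE 0.167, adjusted p = 2.04e-05) but fell by 0.81 in KO cultures, a difference of 2.46 between the effects (SE 0.192, adjusted p = 2.36e-07). In control tumours against WT cultures 12 of 24 tested wider hypoxia genes were higher and 7 lower. Of all genes 70% passed there, 35% in each direction. The log2 fold changes of these hypoxia genes ran from -4.31 to 4.39, with a median of 0.31 against 0.03 for all genes. Of 18 tested wider glycolysis genes 4 were higher and 9 lower. MIR210HG, the host RNA of the hypoxia microRNA miR-210, rose 21.0-fold (log2 4.39, SE 0.331), and VHL, which targets HIF alpha for destruction, by 1.68.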

How the data were processed

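Poly-A RNA of 28 libraries was sequenced after a directional library preparation, per the labels' protocols. Per the submitters' processing notes, Trim Galore 0.6.10, STAR, RSEM and hg38 were used; their settings, the annotation release, the strand setting and the handling of mouse reads are not given in the sources used here. The authors deposited RSEM estimated counts (expected counts) per gene and library, and TPM per gene, deposited by the authors from the same quantification. TPM was used as it stands for levels between genes.

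Expected counts were rounded to whole numbers and tested with edgeR 4.0.16 in R 4.3.3 (filterByExpr, TMM scaling, robust quasi-likelihood fit), with Benjamini-Hochberg adjustment over all genes tested and a threshold of 0.05. The SE was taken from the log2 fold change and its F statistic. The degron, culture and xenograft libraries were fitted apart, and jointly for differences between systems, over the genes that the tables share. Where a group had 0 counts, 3 counts over that group served as the floor of a fold, and intervals of low counts cover counting error only. Alternatives were total-count and RLE scaling, no filter on low counts, a mean of at least 1 CPM, DESeq2 1.42.0, limma 3.58.1 on log2(TPM + 1), a replicate block and leaving out each library. Code was tested on simulated data.

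Values in every library are given for up to 6 members per comparison with the largest absolute log2 fold change among those past the threshold, whose mean log2 CPM reached 1 and whose groups did not overlap, and for ENO1, LDHA, PGK1, SLC2A1, CA9, VEGFA, HIF1A and ANKRD37 where a comparison turns on them; others shown were chosen after their values were seen. Of the wider lists, genes are named from the up to 4 per comparison with the smallest p, and 1 of them is not reported here. Members and lists were chosen with earlier results of these data known. The labels do not say that replicates are separate cultures or animals, so p-values measure the spread between these libraries, which may be technical. Same-numbered libraries did not vary together (correlation of deviations -0.21 to 0.13, over 0.1 in 2 of 26 pairs), so numbers were not taken to pair them.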

Additional observations from a re-analysis of the deposited data

Results flagged for a closer look

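In the control xenografts HIF1A stood apart in replicate 5, at 113 CPM against 132 CPM in the nearest of the other libraries. BNIP3 was at 0.0275 CPM in control xenograft replicate 2 and 0.0376 CPM in KO xenograft replicate 2 and at 0 in the others, which is 1 count in each case. These are 3 of 80 groups of values tested for a library far from the rest, and chance alone marks about 1 in 20.

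The effect of the knockout differed between xenografts and cultures for 6 members by the test of the difference (edgeR). The log2 difference was -2.31 for ALDOC (adjusted p = 0.000462), 0.82 for LDHB (1.02e-05), -0.64 for PDK1 (0.0328), 0.45 for TPI1 (0.00826), 0.44 for GAPDH (0.00314) and 0.38 for GPI (0.0145). The effect of 72 h of auxin differed from that of the knockout in culture for 23 members. The log2 difference was -1.05 for ADM (adjusted p = 3.39e-06), 0.98 for HK2 (4.8e-12), 0.98 for KDM3A (9.53e-09), 0.90 for LDHB (2.61e-12), 0.84 for BHLHE40 (4.39e-08) and 0.75 for PFKM (1.04e-08).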

How the results depend on the processing

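Over the alternatives tried for the members whose values are given by the naming rule in each comparison, 1763 gave the same call and direction, 33 passed the threshold where the reported value did not, 83 no longer passed and 6 turned direction. The causes were not tested. With limma on log2(TPM + 1) the members passing went from 8 to 2 at 12 h and from 5 to 1 for washout against control, and all genes passing from 1037 to 357, from 701 to 281 and, for washout against 12 h, from 2444 to 1123. Total-count scaling left 3 members for washout against control. Without the 4 haemoglobin libraries, an alternative chosen after seeing the data, there were 4 members and 333 genes at 12 h, 1 and 334 for washout against 12 h, and 0 and 179 for washout against control, with fewer libraries in each fit. For the knockout effect in xenografts against cultures, the 6 members became 11 by total-count scaling, 12 by limma and 14 without KO xenograft replicate 5. Directions turned for PGK1 at 72 h (0.12 by limma), for ENO1 and LDHA in control xenografts against WT cultures (0.20 and 0.21 by total-count scaling, 0.25 and 0.32 by limma) and for SLC2A1 in 72 h against KO (0.036 by limma). Other called members turned too: by limma alone LDHB (0.02) and EGLN1 (0.12) at 72 h and EGLN1 in KO cultures (0.30), and by both limma and total-count scaling TPI1 at 72 h (up to 0.02) and PKM and LDHB in control xenografts against WT cultures (up to 0.10 and 0.08).

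Leaving out single libraries gave 4 to 8 members at 12 h, 28 to 30 at 72 h, 8 to 10 for washout against 12 h, 1 to 5 for washout against control, 30 to 31 in KO cultures, 11 to 20 in KO xenografts, 24 to 26 in control xenografts against WT cultures, 4 to 14 for the difference of knockout effects and 21 to 24 for 72 h against KO. For all genes the same ranges were 606 to 1170, 7257 to 7685, 1414 to 2266, 321 to 896, 7373 to 8041, 7579 to 8496, 10499 to 10953, 3627 to 4611 and 5965 to 6529. The share of called genes that were higher moved by over 10 percentage points with scaling: by total-count scaling and by limma it went from 54.7% to 66.9% and 70.9% at 12 h, from 48.9% to 65% and 65.2% at 72 h, from 51.4% to 62.2% and 74.4% in KO cultures, and from 50.1% to 70.8% and 63.8% in control xenografts against WT cultures. For the difference of knockout effects it went from 46.8% to 32.5% and 17.5%, and by limma alone from 52.1% to 39.3% for 72 h against KO.

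With the replicate number as a block, in the same order, 9, 30, 13, 5, 31, 12, 25, 6 and 23 members passed. The numbers were not taken to pair libraries, although a low correlation cannot exclude it, and no count moved by over 1.5 times. Low counts limit what can be said of CA9, BNIP3, ALDOC and MXRA5 in cultured cells.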
